A study of Mus musculus with 19 samples.

Results

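The genes described here are those of the proteasome and its relatives, taken as every gene whose single annotated symbol starts with Psma, Psmb, Psmc, Psmd, Psme, Psmf or Psmg followed by a digit. The rule found 49 of the 22180 genes named on the spleen arrays and 50 of the 19938 genes named on the arrays from skin-draining lymph nodes (SDLN), 50 different genes in all. Tests were run on genes that reached the median log2 intensity of their table on 2 or more arrays, a median of 5.04 in spleen and 4.82 in SDLN. In spleen 47 genes passed, Psma5 and Psmb11 did not, and Psma4 had no probe set of its own, because both of its probe sets are shared with the copy AY074887. In SDLN 49 passed and Psma8 did not. Not every gene with such a symbol encodes a subunit. Psmg1 to Psmg4, Psmd5, Psmd9 and Psmd10 encode assembly factors, Psmf1 encodes an inhibitor, and Psmc3ip and Psme3ip1 matched by name alone.

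The proteasome is the barrel-shaped protease that degrades ubiquitin-tagged proteins in the cytosol and nucleus. Its 20S core stacks alpha and beta rings, with proteolytic sites on the constitutive beta subunits Psmb5, Psmb6 and Psmb7, and the 19S cap of ATPases (Psmc) and non-ATPases (Psmd) recognises, unfolds and feeds in substrates. In immune cells and under interferon-gamma these catalytic subunits are exchanged for Psmb8, Psmb9 and Psmb10, which gives the immunoproteasome, and the PA28 activator of Psme1 and Psme2 can replace the cap. The peptides it makes are carried into the endoplasmic reticulum by TAP and loaded on MHC class I, a route on which type 1 conventional dendritic cells (DC1), which present antigens from other cells to CD8 T cells, depend.

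DC1 were sorted from C57Bl/6j mice of wild-type (WT) or Batf3-/- genotype, Batf3 being a transcription factor needed for DC1 development. The spleen groups, from female mice, were WT without Irf8VENUS, a fluorescent reporter of Irf8 (WT Irf8VENUS-, n = 2 arrays), WT with the reporter (WT Irf8VENUS+, n = 3) and Batf3-/- with the reporter (Batf3-/- Irf8VENUS+, n = 3). The SDLN groups all carried Irf8VENUS: WT resident (n = 3), WT migratory (n = 2), Batf3-/- resident (n = 3) and Batf3-/- migratory (n = 3) DC1. Resident cells were gated as intermediate for MHC class II and high for CD11c, and migratory cells, which arrive from the skin, as high for MHC class II and intermediate for CD11c. The labels give both SDLN subsets as CD24+ and CD172-, and the spleen cells as CD172a+. That is the opposite sign for a protein that marks the other conventional subset, cDC2, and whether the spleen entry is as intended is unknown. Xcr1 was high on the spleen arrays (group means of 10.25 to 11.18, with 8.99 on Batf3-/- replicate 3). Sirpa, the gene of CD172a, read 5.35 to 5.84 on them, beside a table median of 5.04. In both spleen groups with the reporter, the gate of replicate 3 used only CD24, while XCR1 was added for every other spleen array. The sources used here give neither ages nor whether each array stands for a different mouse, so every p-value speaks of the spread between arrays and no more.

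Batf3 was low in each Batf3-/- group, at a log2 intensity of 6.24 ± 0.90 (SD, n = 3) in spleen, 5.74 ± 0.23 (n = 3) in resident and 6.02 ± 0.15 (n = 3) in migratory cells, against group means of 8.38 to 9.93 in WT. The median of the DC1 markers (Xcr1, Clec9a, Tlr3, Irf8, Cadm1 and Itgae where tested) lay at 10.23 to 11.21 on all spleen arrays but Batf3-/- replicate 3, where it was 8.99. It lay at 9.80 to 10.65 on the resident arrays and at 6.04 to 7.87 on the migratory ones, where the migratory markers Ccr7 and Fscn1 had a median of 10.92 to 12.57 (7.00 to 10.14 on resident arrays). Xcr1 and Clec9a, which define DC1, were thus much dimmer in the migratory sort, at 6.12 to 7.96 and 6.39 to 7.31 as group means. The 2 tables were normalized separately and were compared only within a table. The probe sets of different genes are not on a common scale, so the text compares changes of a gene, never the level of one gene with that of another. In sorted cell populations, fewer cells of a type and less RNA per cell cannot be told apart.

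The DNA just upstream of the inducible genes is shown here for the 4 on which the migratory comparison turns. Psmb9 and Psmb8 lie close together with Tap1 in the MHC region and did not change alike, while Psmb10 and Psme2 rose in both genotypes. Sequences are from RefSeq (GRCm38.p6), 5′ to 3′ on the strand of the gene and ending at the base before its start. For Psmb9 the stretch is the whole interval to Tap1, which is transcribed the other way, so these bases lie upstream of both genes. None of the 4 stretches overlaps an annotated gene. Capitals mark matches to the motifs named below.
Psmb9 to Tap1, chr17:34187331-34187555, minus strand: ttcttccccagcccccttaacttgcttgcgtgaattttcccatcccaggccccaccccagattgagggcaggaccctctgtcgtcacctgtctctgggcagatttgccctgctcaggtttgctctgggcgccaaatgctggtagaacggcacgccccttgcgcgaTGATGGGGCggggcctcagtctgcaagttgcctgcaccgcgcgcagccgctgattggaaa
Psmb8, chr17:34197945-34198194, plus strand: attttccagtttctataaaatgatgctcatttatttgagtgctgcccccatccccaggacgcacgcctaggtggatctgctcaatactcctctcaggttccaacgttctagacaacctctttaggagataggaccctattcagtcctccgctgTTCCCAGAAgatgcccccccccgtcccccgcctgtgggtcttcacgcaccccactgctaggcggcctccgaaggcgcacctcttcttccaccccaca
Psmb10, chr8:105938393-105938642, minus strand: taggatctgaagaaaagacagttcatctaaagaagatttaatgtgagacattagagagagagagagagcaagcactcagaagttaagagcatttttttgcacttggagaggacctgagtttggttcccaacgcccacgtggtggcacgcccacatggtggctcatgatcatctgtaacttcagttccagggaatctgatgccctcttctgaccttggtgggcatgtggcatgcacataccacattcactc
Psme2, chr14:55591102-55591351, minus strand: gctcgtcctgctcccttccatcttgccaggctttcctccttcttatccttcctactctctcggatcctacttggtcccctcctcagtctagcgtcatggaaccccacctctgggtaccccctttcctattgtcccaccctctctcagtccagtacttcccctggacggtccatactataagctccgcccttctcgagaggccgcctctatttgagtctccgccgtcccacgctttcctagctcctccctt

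A search for 4 motifs was made on both strands in the 250 bases upstream of each start, for 42 of the 50 genes, which have 46 listed starts. They were an interferon-stimulated response element (ISRE, GAAA followed by any 2 bases and GAAA again), a gamma-activated site (GAS, TTCNNNGAA), an AP-1 site (TGANTCA) and an antioxidant response element (ARE, TGANNNNGC), the type of site bound by NRF factors. GAS matched 1 of the 6 starts of the inducible genes, that of Psmb8 at positions -97 to -89 from the start, 0 of the 27 of constitutive subunits and 7.02% of all 32851 listed promoters. ISRE matched 0 of 6, 2 of 27 (Psmb3 and Psmd4) and 2.98%. AP-1 matched 0 of 6, 0 of 27 and 6.75%. ARE matched 2 of 6, 10 of 27 (37.0%) and 35.2%. The ARE match of Psmb9 lies at positions -60 to -52, which is -174 to -166 from the start of Tap1, and that of Psme2 lies upstream of its other listed start. A match is a description of these letters and neither a shown site nor a cause.

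The first SDLN comparison set migratory against resident cells in WT mice. Of the inducible genes, Psmb10 and Psme2 rose, Psmb9 fell, and Psmb8 and Psme1 did not pass the test. Of the 31 constitutive subunits 13 fell and 1 rose, and the falls lay mostly in the 19S cap, where 7 of 11 non-ATPases fell and none rose. In all, 20 of the 49 genes fell and 6 rose (limma adjusted p below 0.05), at a background of 33.2% of all genes tested falling, 16% rising and 49.2% changing either way. That is 40.8% and 12.2% of the members, so the share that changed is near the background and only the pattern within the complex is described here. The median log2 change of all genes tested was -0.16 in this comparison and moved to -0.054 when the table was quantile normalized again and to -0.31 when each array was centred on its median, so list medians are also given relative to it.

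Psmb9, the immunoproteasome subunit that replaces Psmb6, had log2 intensities of 11.72, 12.04 and 12.10 on the WT resident arrays and 11.26 and 11.02 on the WT migratory arrays. The groups did not overlap (as for 44.2% of all genes in this direction), and Psmb9 fell by 0.82 ± 0.23 (log2, SE; limma adjusted p = 0.012). Without migratory replicate 2 the difference was -0.70 and no longer passed. Tap1, the peptide transporter gene across the shared interval, fell as well, by 0.85 ± 0.20 (adjusted p = 0.004), from 11.02, 11.16 and 11.36 to 10.03 and 10.63, a call lost without migratory replicate 1 (-0.56). With the SD of array values as a term, a fit taken up below, neither gene passed and the value of Tap1 was 0.34.

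Psmb10, which replaces Psmb7, read 10.31, 10.22 and 10.29 on resident and 10.91 and 10.73 on migratory WT arrays. Both migratory arrays lay above every resident array, a rise of 0.55 ± 0.12 (limma adjusted p = 0.003) that held without each array in turn. With the SD of array values as a term Psmb10 did not pass (limma adjusted p = 0.749). Psme2, the beta subunit of PA28, read 11.09, 11.19 and 11.11 on resident and 11.69 and 11.70 on migratory arrays. It rose by 0.57 ± 0.19 (adjusted p = 0.025), with tight groups, although the call was lost in 4 of the 5 fits that left out 1 array, all but that without resident replicate 2. The call of Psme2 was also lost with each array centred on its median and with the SD term. Psme1, its alpha partner, read 10.62, 10.67 and 10.72 against 10.91 and 10.96. These groups did not overlap either, but the difference of 0.26 ± 0.11 did not pass (adjusted p = 0.055). Psmb8, which replaces Psmb5, read 10.82, 11.14 and 11.01 against 11.04 and 11.00, overlapping groups with a difference of 0.03 ± 0.22 (adjusted p = 0.919).

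Among the constitutive catalytic genes Psmb5 fell by 0.54 ± 0.19 (limma adjusted p = 0.032), a call lost without any 1 of the 5 arrays, while Psmb6 differed by -0.16 ± 0.19 and Psmb7 by 0.095 ± 0.17, neither passing. Psmb2 and Psmb4 of the beta rings and Psma4 of the alpha ring also fell; Psmb4 and Psma4 lost their call without either migratory array or without resident replicate 2 or 3. Psmb2 read 10.82, 10.74 and 10.78 on resident and 10.02 and 9.96 on migratory arrays, and its fall of 0.79 ± 0.14 (adjusted p = 7e-04) held without each array in turn. With the SD of array values as a term Psmb2 (limma adjusted p = 0.649), Psmb4 and Psma4 did not pass.

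The 19S cap carried the larger falls. Psmd3, a lid scaffold subunit, read 7.03, 7.52 and 7.58 on resident and 4.87 and 5.38 on migratory WT arrays, and fell by 2.25 ± 0.48 (limma adjusted p = 0.002). Psmd13, another lid subunit, read 7.78, 7.70 and 7.71 against 6.52 and 6.50, a fall of 1.22 ± 0.16 (adjusted p = 1e-04). Both kept their call without each array in turn. With the SD of array values as a term neither passed, and the sign turned for Psmd3 (1.23), Psmd12 (0.54), Psmd2 (0.74) and Psmc3 (0.37), but not for Psmd13 (-0.99). Psmd12, Psmd6 and Psmd11 of the lid and Psmd2 and Psmd1, the large base scaffolds, fell by 0.94, 0.71, 0.56, 0.70 and 0.68. Each of these 5 lost its call in at least 1 fit without an array, Psmd11 and Psmd1 in that without migratory replicate 1 alone, Psmd12 in those without migratory replicate 1 (-0.63) or resident replicate 3, Psmd6 in those without migratory replicate 2 (-0.40) or resident replicate 2 or 3, and Psmd2 in all but that without migratory replicate 2. Of the 6 ATPases Psmc1 and Psmc3 fell, by 0.79 ± 0.23 (call lost without migratory replicate 2 or resident replicate 3) and 0.75 ± 0.20 (lost without migratory replicate 1), while Psmc6 rose by 0.68 ± 0.19 (adjusted p = 0.011). Psmc6 read 8.11, 8.09 and 7.82 on resident against 8.60 and 8.76 on migratory arrays, and lost its call without migratory replicate 2 and with the SD of array values as a term (0.48).

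The assembly factors moved furthest apart. Psmg4, part of the chaperone pair that builds the alpha ring with Psmg3, read 8.73, 8.72 and 8.55 on resident and 10.32 and 10.11 on migratory arrays, a rise of 1.55 ± 0.18 (limma adjusted p = 3.4e-05). Its partner Psmg3 fell by 0.78 ± 0.27 (adjusted p = 0.029), a call lost without migratory replicate 1 (-0.46) or resident replicate 2 or 3. Psmg1 read 7.46, 7.32 and 7.34 on resident and 6.07 and 5.75 on migratory arrays, a fall of 1.46 ± 0.24 (adjusted p = 5e-04), and Psmg2, its partner in that chaperone, fell by 0.68 ± 0.18 (adjusted p = 0.007). Of the chaperones of the 19S base, Psmd10 (gankyrin) rose by 0.87 ± 0.20 (adjusted p = 0.004) and Psmd5 fell by 1.61 ± 0.33 (adjusted p = 0.002). Psmd5 was decided in size by 1 array: it read 4.06 on migratory replicate 1 and 5.63 on replicate 2, and its change was -0.82 without the first, -2.39 without the other and 0.047 with the SD term. That term also removed the calls of Psmg4, Psmg3, Psmg2 and Psmd10, but not that of Psmg1. Psme3, the nuclear PA28 relative, fell by 1.18 ± 0.22 (adjusted p = 9e-04) while Psme4, the PA200 activator, differed by -0.16 ± 0.16. With the SD of array values as a term Psme3 stood at -0.011 (limma adjusted p = 0.989).

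**Figure D1:**
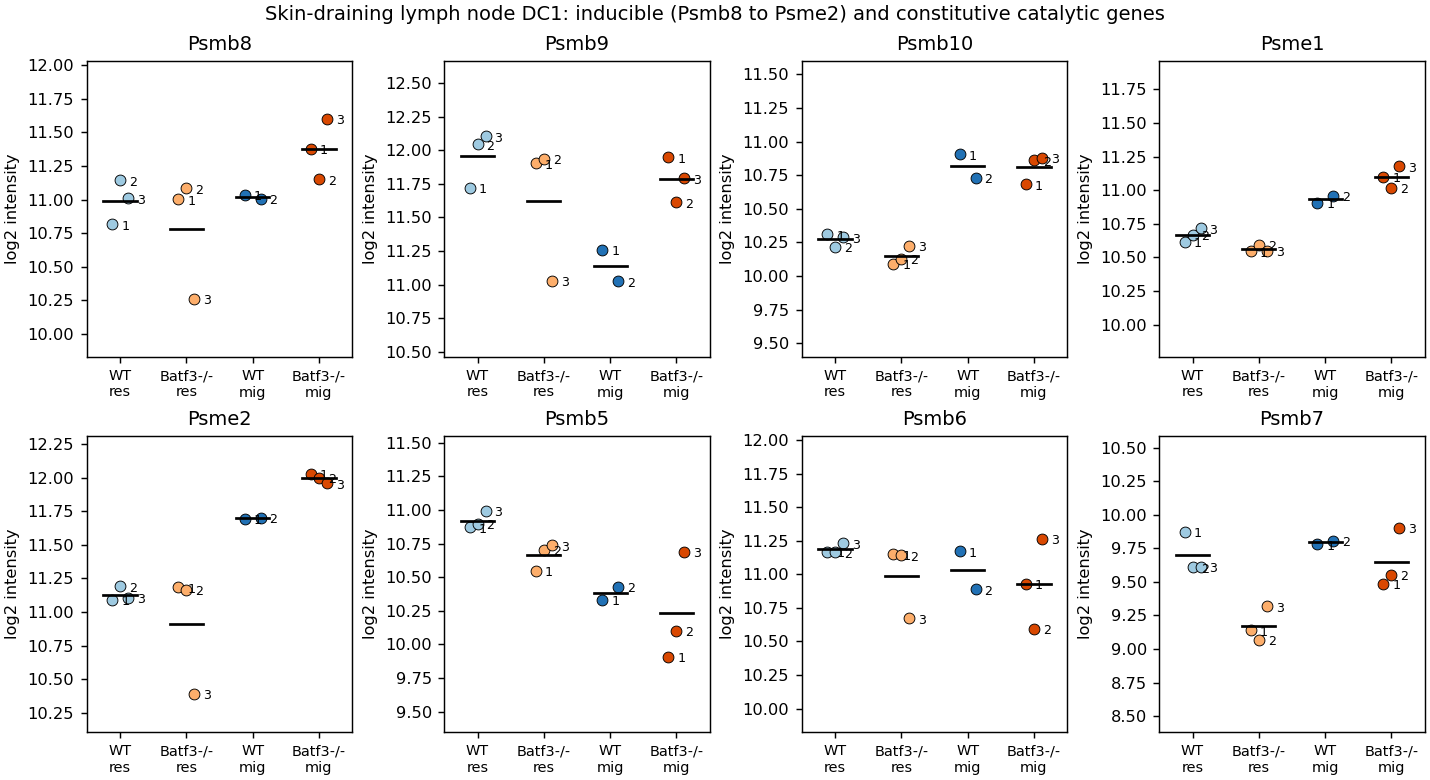
Log2 intensity of the 5 inducible genes and the 3 constitutive catalytic genes on each SDLN array, in WT and Batf3-/- resident (res) and migratory (mig) DC1; points are arrays with their replicate number, bars are group means, and each panel has its own axis. Psmb10, Psme1 and Psme2 are higher on every migratory array than on any resident array of the same genotype, Psmb9 is low on both WT migratory arrays and on Batf3-/- resident replicate 3 (11.03), and Psmb7 is lowest on the Batf3-/- resident arrays.

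In Batf3-/- mice the same comparison gave 9 genes that rose and 5 that fell of 49, at a background of 14.1% of all genes rising, 22.6% falling and 36.6% changing either way. The members' shares were 18.4% and 10.2%. Of the inducible genes 4 of 5 rose: Psme2, Psmb10, Psmb8 and Psme1. Of the 31 constitutive subunits 3 rose (Psmc6, Psmb7 and Psmd4) and 2 fell (Psmb2 and Psmd13).

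Psme2 read 11.18, 11.17 and 10.39 on the resident and 12.03, 12.00 and 11.96 on the migratory Batf3-/- arrays. The migratory arrays stood together and above all resident ones, and Psme2 rose by 1.08 ± 0.17 (limma adjusted p = 3e-04). Psme1 read 10.55, 10.60 and 10.55 against 11.10, 11.02 and 11.18, a rise of 0.53 ± 0.094 (adjusted p = 7e-04). Psmb10 read 10.09, 10.13 and 10.23 against 10.68, 10.86 and 10.88, a rise of 0.66 ± 0.11 (adjusted p = 5e-04). These 3 genes kept their call without each of the 6 arrays and under each of the 10 other settings tried.

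Psmb8 was less settled. It read 11.00, 11.09 and 10.26 on resident and 11.38, 11.15 and 11.60 on migratory arrays, and rose by 0.59 ± 0.19 (limma adjusted p = 0.030). The groups did not overlap, but resident replicate 3 stood well below the other resident arrays. Without that array the difference was 0.33 and did not pass, nor did it pass without migratory replicate 1 or replicate 3. Psmb9 read 11.90, 11.94 and 11.03 against 11.95, 11.61 and 11.79, overlapping groups with a difference of 0.16 ± 0.21 (adjusted p = 0.586). The low resident array is again replicate 3, which was also the lowest of its group for Nlrc5, the class I transactivator, at 9.08 against 10.40 and 10.34. It was the highest of its group for Psmb10 and for the class I light chain gene B2m (12.20 against 11.82 and 11.88). What sets this array apart was not tested.

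Psmb7 rose by 0.47 ± 0.15 (limma adjusted p = 0.026), from 9.14, 9.07 and 9.32 to 9.49, 9.55 and 9.90, the same direction as Psmb10, which replaces it. The call was lost without resident replicate 1, resident replicate 2 or migratory replicate 3. Psmb5 differed by -0.43 ± 0.17 (adjusted p = 0.065) and Psmb6 by -0.058 ± 0.17. Psmd4, the ubiquitin receptor of the cap, rose by 0.63 ± 0.23 (adjusted p = 0.047) with overlapping groups, and Psmd13 fell by 0.39 ± 0.14 (adjusted p = 0.047). With the replicate number as a block Psmd13 did not pass (adjusted p = 0.054) and Psmb5 did (0.031). Psmd13 lost its call without any 1 of the 6 arrays, and Psmd4 without migratory replicate 1 or 2 or resident replicate 2 or 3. Psmg4 rose by 1.57 ± 0.16 and Psmd10 by 1.24 ± 0.18, while Psmg1 fell by 1.34 ± 0.22 and Psmg2 by 1.07 ± 0.16. Psme3 fell by 0.63 ± 0.19 (adjusted p = 0.023), a call lost in 4 of 6 fits without an array, those without resident replicate 1 or 2 or migratory replicate 2 or 3.

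The WT and the Batf3-/- comparison of migratory with resident cells share no array. There were 10 genes called in both, all in the same direction: Psmb10, Psme2, Psmc6, Psmd10 and Psmg4 rose, and Psmb2, Psmd13, Psme3, Psmg1 and Psmg2 fell. These are 38.5% of the 26 genes called in WT and 71.4% of the 14 called in Batf3-/-. Over all genes tested, 3294 were called in both in the same direction, 56.1% of the WT calls and 75.4% of the Batf3-/- calls, and 27 in opposite directions. No member was called in opposite directions. With the SD of array values as a term, Psmg1 alone of the 10 kept its WT call.

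**Figure D2:**
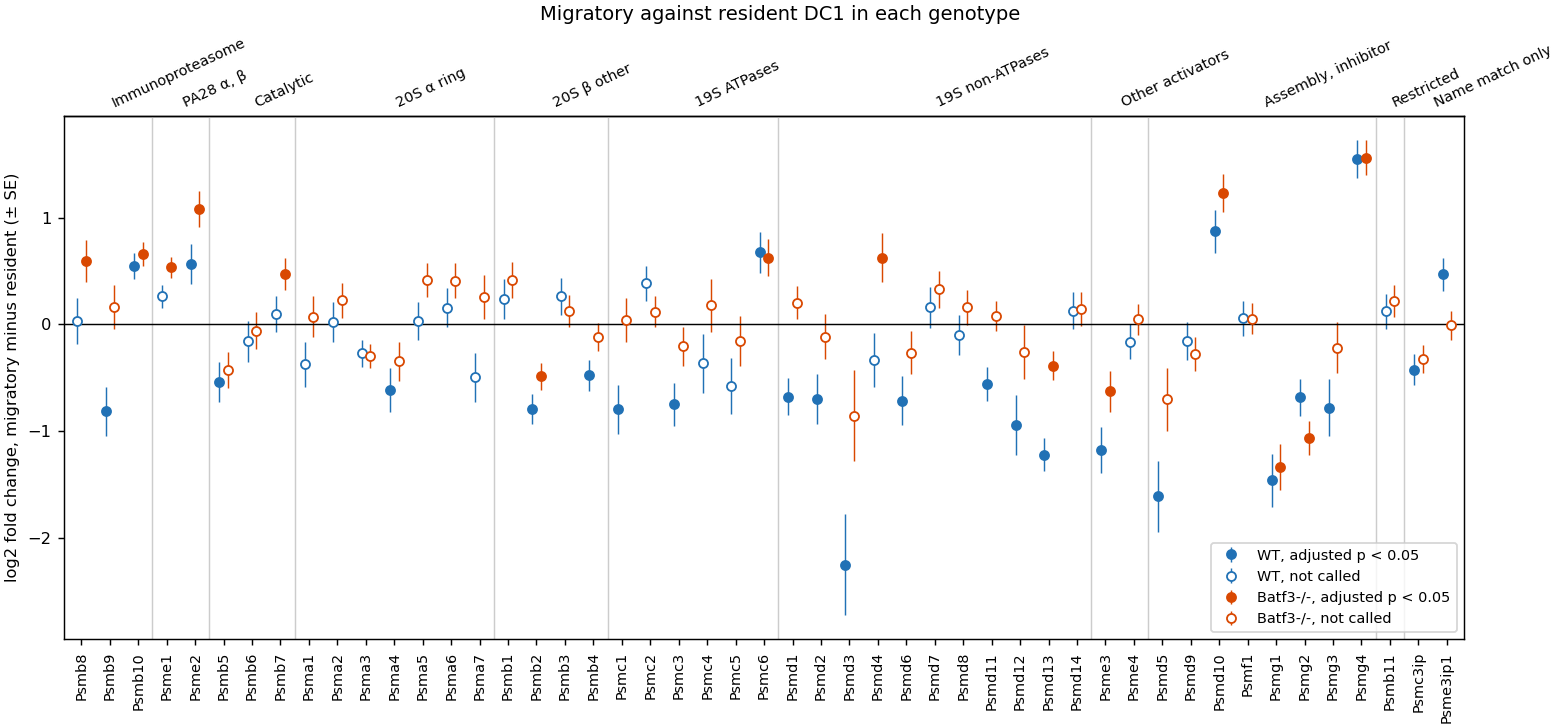
Log2 fold change of migratory over resident DC1 (± SE) for the 49 tested genes, grouped by role, in WT (blue) and Batf3-/- (orange); filled points passed an adjusted p of 0.05 and open points did not. PA28 and Psmb10 lie above 0 in both genotypes, the WT points of the 19S non-ATPases reach down to -2.25 (Psmd3), and Psmg4, Psmd10, Psmg1 and Psmg2 move alike in both.

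Set against each other, the inducible genes had a median change of 0.26 and the constitutive subunits one of -0.37 in WT, a difference of 0.64. In Batf3-/- cells the medians were 0.59 and 0.081, a difference of 0.51. Without each array in turn the difference was 0.61 to 0.70 in WT and 0.39 to 0.66 in Batf3-/- cells. Relative to the median of all genes tested, the inducible genes stood at 0.42 in WT and 0.61 in Batf3-/- cells, and the constitutive subunits at -0.21 and 0.097. The inducible list kept a positive median under all 4 scalings tried, from 0.12 to 0.39 in WT and from 0.53 to 0.66 in Batf3-/- cells. Under these scalings the constitutive median stayed below 0 in WT, from -0.52 to -0.21, and above 0 in Batf3-/- cells, from 0.017 to 0.16. The sign in Batf3-/- cells rested on 1 array. Without Batf3-/- resident replicate 3 the constitutive median there was -0.13, with 17 of 31 subunits below 0. The members of neither list were chosen blind to these data, so the medians are a description.

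The count of falling members in WT did depend on the scaling. Counts under other scalings are given without the share of all genes called, so they describe the members only. The number of falling members was 20 as deposited, 21 with each array centred and 8 after quantile normalization, when 9 rose. For the 19S non-ATPases 7, 7 and 2 fell. The spread of values within an array moved with these groups: its SD was 1.96 and 2.03 on the WT migratory arrays and 2.16 to 2.23 on the resident arrays. With that SD as a term in the fit 2 members rose and 2 fell in WT, the median of the 19S ATPases was 0.59 in place of -0.47, and that of the non-ATPases was -0.037 in place of -0.68. In Batf3-/- cells, whose migratory arrays had an SD of 2.07 to 2.16, the same fit gave 10 genes up and 3 down, quantile normalization 12 and 4, and centring 7 and 8, against 9 and 5 as deposited. T-cell markers (3 of 5 tested rose; list median 6.70 and 7.53 on WT migratory, 6.00 to 6.08 on WT resident arrays) and B-cell markers (5 of 5 rose; 6.10 and 6.34 against 4.31 to 5.39) moved with the WT comparison. In Batf3-/- cells 0 of 5 T-cell, 1 of 5 B-cell and 2 of 3 macrophage and monocyte markers rose. Markers of cDC2, the other conventional subset, moved the other way, with 2 of 3 falling in each genotype (list median 4.12 and 4.34 on WT migratory against 5.31 to 6.33 on WT resident arrays, and 4.07 to 4.27 against 6.95 to 7.43 in Batf3-/- cells). The tested Langerhans cell marker, Cldn1, fell in both genotypes, while Cd207 and Epcam did not pass the filter. In Batf3-/- cells 1 of 3 stromal and endothelial markers fell, and 1 of 4 plasmacytoid markers rose and 1 fell in each genotype. The part of these markers in the results was not tested.

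**Figure D3:**
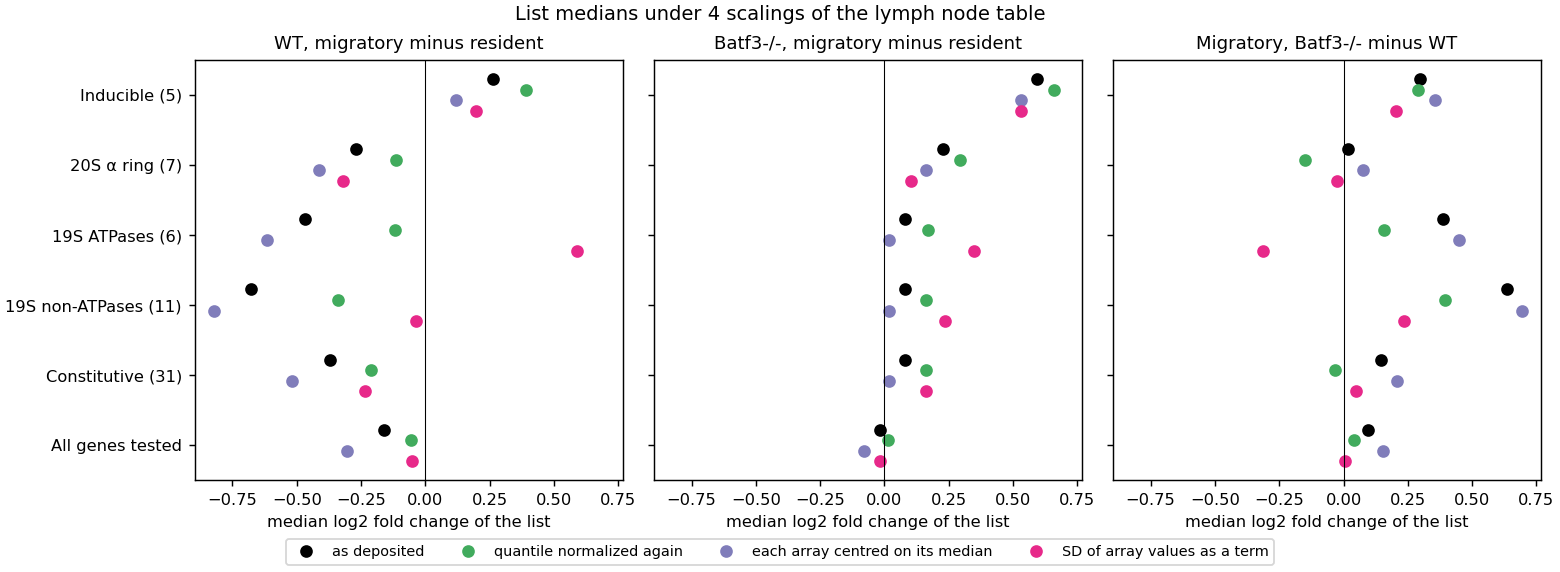
Median log2 fold change of 5 gene lists and of all genes tested (vertical axis, number of genes in brackets) in 3 SDLN comparisons under 4 scalings: as deposited, quantile normalized again, each array centred on its median, and the SD of array values as a term. The inducible median stays between 0.12 and 0.66 in both migratory against resident panels, whereas the median of the 19S ATPases in WT moves from -0.61 to 0.59.

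Genes that work with the proteasome but fall outside the symbol rule were counted by list. Of 13 tested partners, 4 fell in WT, the core assembly factor Pomp (-0.43), the shuttle factor Ubqln1 (-0.94), the deubiquitinase Uchl5 (-0.69) and the ligase Ube3c (-1.11), and none rose. Without migratory replicate 1 neither Uchl5 (-0.36) nor Ube3c (-0.41) passed, nor did either without resident replicate 3, and without migratory replicate 2 Ube3c stood at -1.82. In Batf3-/- cells 1 rose (Fbxo7, 0.77) and 2 fell (Ubqln1, -0.58, and Zfand5, -0.62, the call of the latter lost without migratory replicate 2). Of the regulators of proteasome genes only Nfe2l1, which encodes the factor NRF1, rose, by 1.39 ± 0.28 in Batf3-/- cells (limma adjusted p = 0.002), against 0.60 ± 0.32 in WT (adjusted p = 0.139). Irf1, an interferon-induced factor for immunoproteasome genes, rose by 1.32 ± 0.21 in WT (adjusted p = 4e-04) and by 1.44 ± 0.19 in Batf3-/- cells (adjusted p = 1e-04). Among 9 regulators of interferon and class I genes 1 rose and 4 fell in WT, and 3 rose and 4 fell in Batf3-/- cells. The interferon-gamma receptor gene Ifngr1 fell by 2.77 and 3.23 and the factor gene Irf7 by 2.52 and 2.01. Of the 9 genes of peptide handling and loading, 1 rose and 5 fell in WT, with the class I light chain gene B2m up by 0.88, and the chaperones Pdia3, Canx and Calr down by 1.34, 1.47 and 1.54. In Batf3-/- cells 2 rose and 3 fell, with Pdia3 down by 1.08, Calr down by 0.90 and B2m up by 0.48.

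The next comparison asked what the loss of Batf3 changed in migratory cells. Of the 49 genes 3 rose and 0 fell, at a background of 7.13% of genes rising, 2.28% falling and 9.41% changing either way. At an unadjusted p below 0.05 there were 10, a count given without its share over all genes. All 3 were non-ATPases of the 19S cap. Psmd13 read 6.52 and 6.50 in WT and 7.26, 7.24 and 7.11 in Batf3-/- migratory cells, a rise of 0.70 ± 0.16 (limma adjusted p = 0.021). Psmd11 read 7.66 and 7.70 against 8.41, 8.37 and 8.20 (0.64 ± 0.16, adjusted p = 0.029) and Psmd1 read 7.43 and 7.67 against 8.26, 8.42 and 8.08 (0.70 ± 0.17, adjusted p = 0.029). Every Batf3-/- array lay above both WT arrays for each of them, as for 16 of the 49 members (background 24.2%), while 5 lay lower on every Batf3-/- array (12.4%). The same 2 WT arrays give the falls of these genes in the WT migratory comparison, so the sets of values are not independent.

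The calls rested on few arrays. The counts that follow are of members only. The background of 9.41% belongs to the fit with all arrays, and the share of all genes called in the other fits is not given here. None of the 49 genes was called without WT replicate 1, Batf3-/- replicate 1 or Batf3-/- replicate 2, and none with the SD of array values as a term, where the sign turned for Psmd3 (-0.60), Psmd4 (-0.18) and Psme2 (-0.18). With the replicate number as a block 9 were called, 8 higher and 1 lower, Psmd3, Psmd4 and Psmg2 among them. There were 4 called without WT replicate 2, and without Batf3-/- replicate 3 there were 16, with 11 higher and 5 lower. That array read nearer to WT for several subunits: Psmd3 was 7.23, 7.10 and 5.56 on the Batf3-/- arrays and 4.87 and 5.38 in WT, a difference of 1.51 ± 0.48 (limma adjusted p = 0.064). Psmd4 read 8.89, 8.84 and 8.30 against 7.56 and 8.12, groups that did not overlap (0.84 ± 0.25, adjusted p = 0.057). The SD of its values, 2.07, also lay between those of the other Batf3-/- arrays (2.15 and 2.16) and of WT (1.96 and 2.03), and the part of this spread was not tested beyond the fit just given.

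No inducible gene passed in migratory cells. Psmb9 came nearest, at 11.95, 11.61 and 11.79 in Batf3-/- and 11.26 and 11.02 in WT, groups that did not overlap (0.64 ± 0.23, limma adjusted p = 0.091). Psmb8 differed by 0.36 ± 0.22, Psme2 by 0.30 ± 0.19, Psme1 by 0.17 ± 0.11 and Psmb10 by -0.010 ± 0.12. The median of the inducible list was 0.30 and that of the constitutive list 0.15, beside 0.095 for all genes tested, and the constitutive median turned to -0.032 after quantile normalization. Psmb5, Psmb6 and Psmb7 lay at -0.15, -0.10 and -0.15. Over the alternatives their values changed sign, running from -0.38 to 0.36, from -0.27 to 0.14 and from -0.28 to 0.26. Psmb5 passed only without Batf3-/- replicate 3, at -0.38. Outside the rule Tap1 rose by 0.87 ± 0.20 (adjusted p = 0.024), the tapasin relative Tapbpl by 0.92 ± 0.24 (adjusted p = 0.036) and Irf9, a partner of the STAT factors, by 0.70 ± 0.19 (adjusted p = 0.038). None of these 3 passed without WT replicate 1 or Batf3-/- replicate 1 or 2, nor with the SD term, and Irf9 not without WT replicate 2 either. DC1 markers moved too in this comparison (4 of 6 fell and 1 rose), with 1 of 5 B-cell markers down and 2 of 3 macrophage and monocyte markers up, and their part was not tested.

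In resident cells no member was called, by limma at an adjusted p of 0.05, when Batf3-/- was set against WT; the background was 1.84% (0.847% higher, 0.997% lower). At an unadjusted p below 0.05 there were 2 genes, Psmb7 and Psma5, again without a share over all genes. Psmb7 read 9.87, 9.61 and 9.61 in WT and 9.14, 9.07 and 9.32 in Batf3-/- cells, groups that did not overlap (-0.52 ± 0.15, limma adjusted p = 0.132). Psma5, an alpha-ring subunit, read 9.67, 9.83 and 9.70 against 9.18, 9.44 and 8.93 (-0.55 ± 0.16, adjusted p = 0.137). These values are of its brighter probe set (mean 9.55), and a second one (mean 8.83) was not used. Over all alternatives, the mean of its probe sets among them, the Psma5 value ran from -0.68 to -0.43. Psmb7 and Psma5 had the lowest values of the comparison, and the highest was 0.22 ± 0.14 for Psme3ip1, which is no subunit.

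All 14 constitutive 20S genes and all 5 inducible genes had a value below 0 in this comparison, with medians of -0.21 and -0.21, beside -0.0097 for all genes tested. Of the 49 genes 10 lay lower on every Batf3-/- array than on any WT array (background 11.2%) and 1 lay higher (8.61%). Of those 10, 6 were constitutive 20S genes, among them Psmb5, Psmb6 and Psmb7, and 1 was inducible, Psme1. Batf3-/- replicate 3 was the lowest of its group for Psmb8, Psmb9, Psme2 and Psmb6. Without it 3 of the 5 inducible genes were below 0 (Psmb8 stood at 0.054 and Psme2 at 0.045) and 13 of the 14 constitutive 20S genes, with medians of -0.036 and -0.10. Markers of cDC2 moved with the comparison: 2 of 3 rose, and their list median was 6.95 to 7.43 in Batf3-/- and 5.31 to 6.33 in WT cells. Of the DC1 markers 2 of 6 fell and 0 rose (list median 9.80 to 10.17 against 10.58 to 10.65). Cldn1, the tested Langerhans cell marker, read 10.64 to 11.00 against 9.29 to 9.60. Of the stromal and endothelial markers Pecam1 read 7.69 to 8.03 against 5.52 to 5.94, while Col1a1 and Pdpn overlapped. One of the 2 migratory markers rose as well (list median 8.40 to 10.14 against 7.00 to 8.14). Their part in the result was not tested.

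Whether the effect of Batf3 loss differed between migratory and resident cells was tested as an interaction, and no member passed (limma; background 1.24%, with 0.721% higher and 0.52% lower). At an unadjusted p below 0.05 there were 9, a count given without its share over all genes, as are the counts of other fits below. The smallest p was that of Psmd13, with a difference of effects of 0.84 ± 0.21 (limma adjusted p = 0.072), followed by Psmd1 with 0.88 ± 0.23 (adjusted p = 0.082). The value of Psmb9 was 0.98 ± 0.31 (adjusted p = 0.129) and that of Psmb10 0.11 ± 0.16 (adjusted p = 0.730). Without Batf3-/- migratory replicate 3, 8 members passed, and without WT migratory replicate 2, 1 did. With the replicate number as a block Psmd1 passed (0.93, adjusted p = 0.048). So the rise of Psmb8, Psme1 and Psmb7 in Batf3-/- cells, and its absence from the WT calls, is not shown to be a difference between genotypes. The limma interaction was 0.56 ± 0.29 (adjusted p = 0.314) for Psmb8, 0.27 ± 0.14 (adjusted p = 0.319) for Psme1 and 0.38 (adjusted p = 0.377) for Psmb7.

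Each immunosubunit was also compared with the subunit it replaces, as a difference of log2 intensities within an array, which shows unequal change and not unequal level. Psmb8 minus Psmb5 was 0.57 higher in migratory than in resident WT cells and 1.02 higher in Batf3-/- cells. Psmb10 minus Psmb7 was 0.45 and 0.19 higher. Psmb9 minus Psmb6 differed by -0.66 in WT and 0.22 higher in Batf3-/- cells, and stood at 1.02, 1.02 and 0.53 on the Batf3-/- and 0.08 and 0.14 on the WT migratory arrays. In resident cells Psmb10 minus Psmb7 was 0.40 higher in Batf3-/- than in WT cells, with groups that did not overlap. In an exact two-sided permutation test none of the 21 comparisons could go below p = 0.10, so at this number of arrays no outcome could have passed, and the values are a description.

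**Figure D4:**
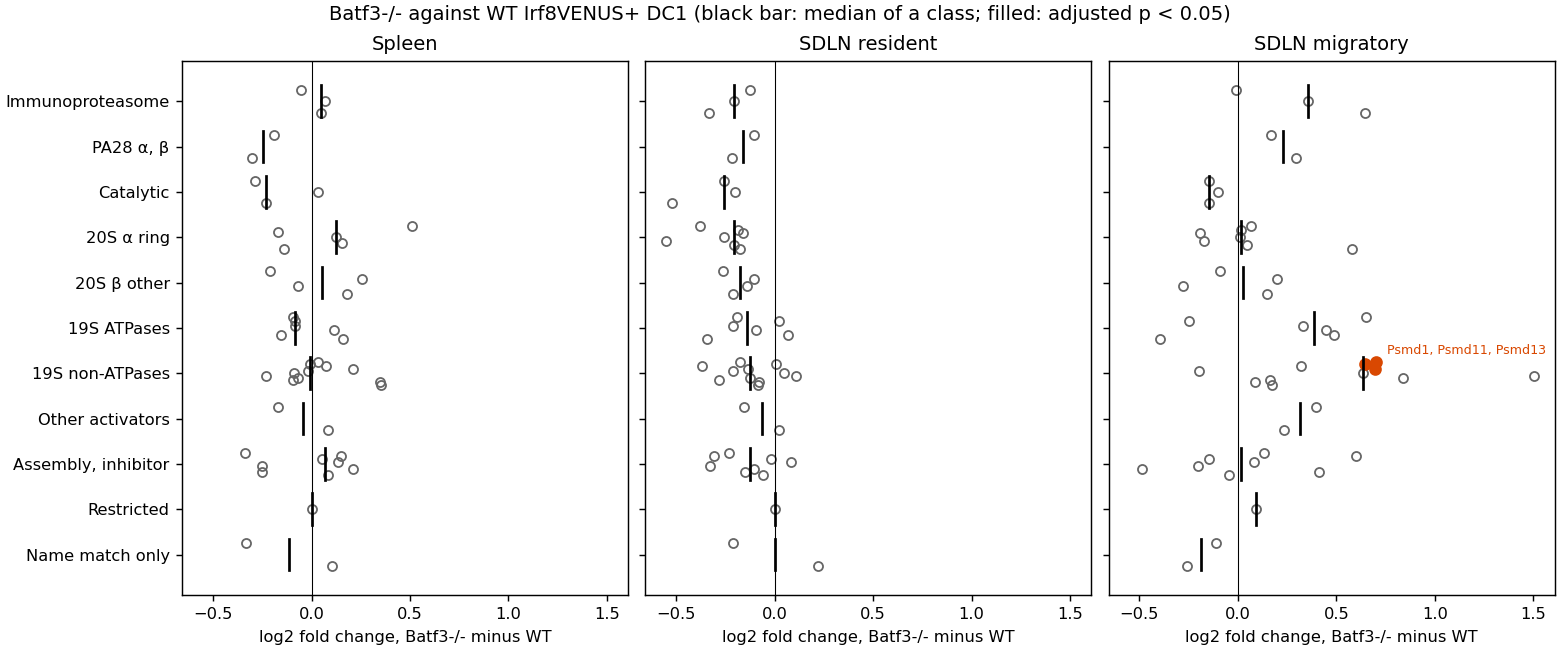
Log2 fold change of Batf3-/- over WT Irf8VENUS+ DC1 (horizontal axis) for each tested gene, by class (vertical axis), in spleen, SDLN resident and SDLN migratory cells; open circles are genes, black bars class medians, and filled circles passed an adjusted p of 0.05. Only Psmd1, Psmd11 and Psmd13 in migratory cells are filled, and in resident cells all catalytic, immunoproteasome, PA28 and other 20S genes lie below 0.

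In spleen no member was called by limma in any of the 3 comparisons, whose backgrounds were low. They were 0.738% between Batf3-/- and WT Irf8VENUS+ cells (0.435% higher, 0.303% lower), 0.0233% between WT Irf8VENUS+ and Irf8VENUS- cells (0.0155% and 0.00777%) and 0.559% between Batf3-/- and WT Irf8VENUS- cells (0.28% in each direction). At an unadjusted p below 0.05 there were 1, 7 and 3 of the 47 members, beside 1343, 1018 and 1191 of all 12875 genes tested. No setting tried called a member. Groups did not overlap, higher and lower, for 1 and 0 members (backgrounds 6.15% and 6.56%), 12 and 2 (14.6% and 10.3%) and 11 and 3 (14.4% and 12.5%). The fits had the sort gate as a term, so fold changes against the Irf8VENUS- group differ from plain differences of means.

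The inducible genes barely separated the spleen groups. Psmb8 read 8.78, 9.18 and 9.26 in WT Irf8VENUS+ and 9.29, 9.28 and 8.86 in Batf3-/- cells (0.068 ± 0.19, limma adjusted p = 0.934), and 9.16 and 9.18 in WT Irf8VENUS- cells. Psmb9 read 11.57, 11.73 and 11.59 in WT Irf8VENUS+, 11.85, 11.76 and 11.42 in Batf3-/- and 11.82 and 11.59 in WT Irf8VENUS- cells. Psmb10 read 8.36, 8.42 and 8.43, then 8.23, 8.37 and 8.45, then 8.35 and 7.77 in the same order. The groups overlapped for all 3 between Batf3-/- and WT Irf8VENUS+ cells.

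Neither PA28 gene passed the test in Batf3-/- spleen cells. Psme1 read 10.46, 10.39 and 10.37 in WT Irf8VENUS+ and 10.34, 10.48 and 9.83 in Batf3-/- cells (-0.19 ± 0.14), and Psme2 read 7.12, 6.67 and 6.50 against 7.08, 6.48 and 5.83 (-0.30 ± 0.22). Replicate 3 of the Batf3-/- group, sorted on CD24 alone and dimmest for the DC1 markers, was the lowest in both, and the part of either was not tested. Over the 2 pairs of arrays sorted on CD24 and XCR1 the differences were -0.017 for Psme1 and -0.12 for Psme2. Of the DC1 markers 1 of 5 fell. The migratory markers also moved in this comparison (1 of 2 rose, with a list median of 8.51 to 9.15 in Batf3-/- and 6.89 to 7.57 in WT Irf8VENUS+ cells). The 2 tested Langerhans cell markers went apart. Cldn1 rose by 2.73, while Cd207 differed by -0.86, which did not pass although its groups did not overlap.

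The largest value upward between Batf3-/- and WT Irf8VENUS+ spleen cells was that of Psma1, 0.51 ± 0.36 (limma adjusted p = 0.688). It rested on the low first WT array, as Psma1 read 7.43, 8.93 and 8.77 in WT and 8.95, 8.98 and 8.74 in Batf3-/- cells. Without that array the value was 0.0066. Psmd8, a lid subunit, had the smallest p and was the one gene whose groups did not overlap, at 9.31, 9.40 and 9.35 against 9.66, 9.79 and 9.67 (0.35 ± 0.13, adjusted p = 0.393). Psmd10 had the lowest value, -0.34 ± 0.21, at 7.06, 7.68 and 6.96 in WT against 6.84, 6.84 and 7.02, and stood at -0.10 without WT replicate 2. Between WT Irf8VENUS+ and Irf8VENUS- cells Psmg2 had the highest value (0.90 ± 0.36, adjusted p = 0.604) and Psmd5 the lowest (-0.72 ± 0.27, adjusted p = 0.587), which was -0.31 without WT Irf8VENUS- replicate 2 and -1.13 without replicate 1. Psmg2 was 0.59 without WT Irf8VENUS+ replicate 1. Between Batf3-/- and WT Irf8VENUS- cells they were Psmg2 again (1.11 ± 0.36, adjusted p = 0.348), at 6.46 and 6.36 in WT Irf8VENUS- against 8.02, 6.97 and 7.70 in Batf3-/- cells, and Psma8 (-0.62 ± 0.24, or -0.32 without Batf3-/- replicate 1), a testis-restricted alpha subunit near the filter level. Inducible minus constitutive medians were -0.033, 0.17 and -0.067 in the 3 comparisons, and the second of these ran from -0.065 to 0.23 when 1 array was left out.

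**Figure D5:**
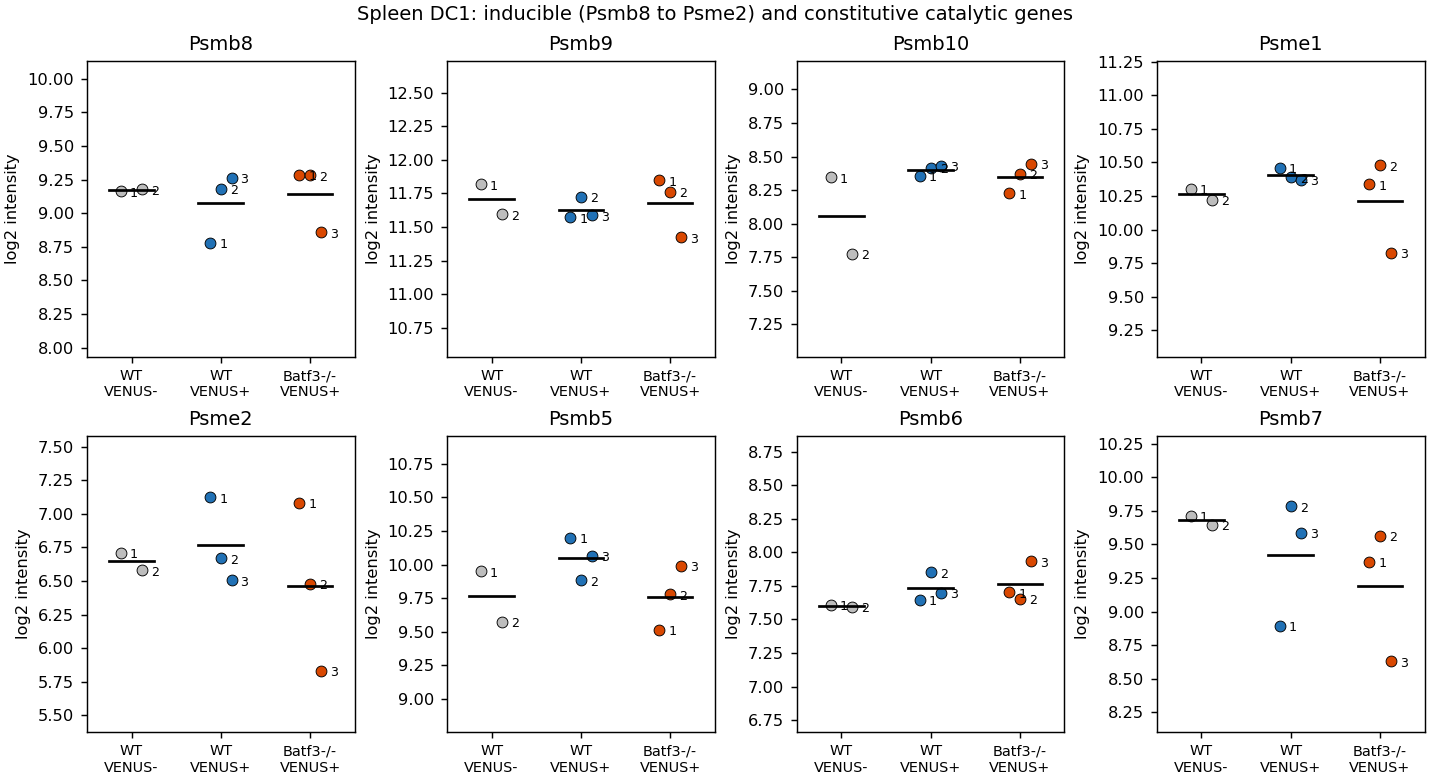
Log2 intensity of the same 8 genes on each spleen array, in WT Irf8VENUS-, WT Irf8VENUS+ and Batf3-/- Irf8VENUS+ DC1; points are arrays with their replicate number, bars are group means, and each panel has its own axis. The Batf3-/- and WT Irf8VENUS+ arrays overlap in all 8 panels, and Batf3-/- replicate 3 is the lowest array for Psme1 (9.83) and Psme2 (5.83).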

How the data were processed

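Gene expression was measured with Affymetrix arrays in 8 spleen and 11 SDLN samples of sorted DC1. RMA is the method that the authors name, per the submitters' processing notes, without a version; it subtracts background, equalises the arrays' distributions and combines the probes of a set. The deposited spleen table holds linear intensity values, of which log2 was taken here. The deposited SDLN table holds log2 values and was used as it stands. RMA pulls arrays towards a shared distribution, so a change of most genes in one direction is reduced. Neither table has a background measure per probe. Precision is limited by how few arrays a group has.

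Names of probe sets came from GEO's platform annotation, with symbols updated through RefSeq gene identifiers (23328 of 23521 single-symbol probe sets in spleen and 21698 of 21789 in SDLN matched). A gene is its single-symbol probe set with the highest mean; those with several symbols were not used. Tests used limma 3.58.1 (R 4.3.3) with lmFit and a trended eBayes over all 12875 and 11931 genes tested, with Benjamini-Hochberg adjustment over all of them and a threshold of 0.05. All arrays of a table shared the spread. For spleen the gate used in sorting entered the model. The pipeline was tested on simulated data.

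The members and gene lists were chosen with earlier results of these data known, so no list has a test and lists are described by counts and medians. The rule for genes with values named the 5 inducible and 3 constitutive catalytic genes, called members (the 12 smallest p first), and the highest and lowest value of each comparison; further members named, and uncalled ones beside them, were chosen after their values were seen. Of the lists outside the symbol rule, up to 3 called genes per comparison were to be named; Ube3c, Tap1 and, in WT migratory against resident cells, B2m go beyond this, likewise after values were seen. SDLN titles share a code between arrays of a replicate number, whose meaning the labels do not state. Same-numbered arrays had correlations of their deviations from group means of 0.416, 0.210 and 0.479 for Batf3-/- resident and migratory cells. They were 0.147 and 0.097 for WT resident and migratory cells, and -0.066, 0.267 and 0.349 for spleen WT and Batf3-/- with reporter. Batf3-/- resident and migratory arrays of unlike number had 0.184 and 0.218 between replicates 1 and 2, and -0.451 to -0.279 where replicate 3 took part. In spleen, WT and Batf3-/- arrays with reporter and of unlike number had -0.427 to 0.264. These values do not settle whether arrays are pairs. The main fits were unpaired, and values with the number as a block stand beside the results they change. Alternatives were other dim-gene filters, quantile normalization, centring, array weights, fits of the compared groups only, mean probe sets, no trend, the array SD as a term, a replicate block, other gate handling, other lists, and leaving out each array. The fits of list counts and of genes outside the symbol rule under such alternatives were added after seeing the data.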

Additional observations from a re-analysis of the deposited data

How the results depend on the processing

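In spleen 0 members were called under each alternative. The counts in this paragraph are of members only, without the share of all genes called in the same fit. The count of called members in resident Batf3-/- against WT cells was 0, 2 with array weights and 1 with the array SD as a term. In migratory Batf3-/- against WT cells it was 3, 1 after quantile normalization, 8 with array weights, 9 with a replicate block on the title code, 0 with only the compared groups and 0 with the array SD, and 0 to 16 without 1 array. In WT migratory against resident cells it was 26, 17 after quantile normalization and 4 with the array SD, and 14 to 22 without 1 array. For the interaction it was 0, 5 with array weights, 1 with no trend and 1 with the replicate block, and 0 to 8 without 1 array. The block moved no other count of called members by more than 1.5 times.

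The inducible minus constitutive median in migratory Batf3-/- against WT cells was 0.15, 0.32 after quantile normalization, 0.22 with array weights, 0.26 with the replicate block and 0.34 against 20S subunits only (0.11 to 0.23 without 1 array). In WT migratory against resident cells it was 0.64, 0.43 with the array SD, 0.75 with the replicate block, 0.40 with Psme3 and Psme4 added and 0.48 against 20S subunits only (0.61 to 0.70). In Batf3-/- cells it was 0.51, 0.37 with the array SD and 0.45 with Psme3 and Psme4 (0.39 to 0.66). For the interaction it was 0.13, 0.22 after quantile normalization, 0.073 with array weights, 0.034 with the array SD, 0.24 with the block and 0.25 against 20S subunits (0.023 to 0.27). In resident cells it was -0.021, 0.031 after quantile normalization and 0.031 with Psme3 and Psme4 (-0.094 to 0.043). In spleen WT Irf8VENUS+ against Irf8VENUS- cells it was 0.17 and -0.080 with Psme3 and Psme4 (-0.065 to 0.23).

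Of 1869 alternative values of single members, 1631 kept direction and call, 131 lost and 28 gained a call in the same direction, 74 changed sign in members called in neither fit, and 5 changed sign in called members. These 5 were all in WT migratory against resident cells with the array SD as a term, where they were not called: Psmc3 0.37, Psmd12 0.54, Psmd2 0.74, Psmd3 1.23 and Psmd5 0.047. The cause was not tested.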
